A study of Mus musculus with 4 samples.

Results

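The semaphorins, the plexins and neuropilins that receive them, and the plexin domain containing genes were followed in RNA-seq libraries of brain RNA from C57BL/6 mouse embryos at E13.5, 2 macroH2A knockout (KO) and 2 wild type (WT). The genes were taken by name and biotype: protein-coding genes listed in both deposited count tables whose symbol starts with Sema3 to Sema7, Plxn or Plxdc, or is Nrp1 or Nrp2. These are 33 of the 19150 genes in both tables, namely 20 semaphorins, 9 plexins, 2 neuropilins and the 2 plexin domain containing genes Plxdc1 and Plxdc2. The KO libraries are KO2 and KO4 and the WT libraries are WT6 and WT8. The study's title names deletion of macroH2A, a histone variant linked to inactive chromatin, and the labels do not say which of its genes was targeted, which allele was used or whether embryos of 1 genotype shared a litter. The p-values therefore speak of the spread among these 4 libraries, part of which may be technical.

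Semaphorins are guidance proteins that steer growing axons, migrating neurons and blood vessels, most often by repelling them. Class 3 members are secreted and most of them bind a neuropilin, which holds the ligand while an A-type plexin carries the signal into the cell. Classes 4, 5 and 6 span the membrane, with class 4 acting largely through B-type plexins and class 6 through A-type plexins, and Sema7a is held on the surface by a lipid anchor. The inner part of a plexin inactivates small GTPases of the Ras family and so loosens adhesion and the actin cytoskeleton in the growth cone.

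Of the macroH2A genes, H2afy had 1368 and 1267 reads in the KO libraries and 5538 and 5593 reads in the WT libraries. H2afy fell by 2.22 on the log2 scale (SE 0.1), with an adjusted p of 0.00167 in edgeR. H2afy2 stood at 0.08 on that scale (SE 0.09), with an adjusted p of 0.799 in edgeR. Libraries held between 16470090 and 18136745 reads. By Xist and Y-linked reads KO2 and WT6 came from males and KO4 and WT8 from females, so the authors' deposited tables, KO2 with WT6 and KO4 with WT8, are also a male and a female pair. The neuron markers Tubb3, Dcx and Stmn2 were abundant in all 4 libraries, with 3009 and 2789 CPM (reads of a gene scaled to a common library size) of Tubb3 in the KO libraries and 2838 and 3442 CPM in the WT libraries. Radial glia markers (15 of 15, led by Vim, Fabp7 and Nes) summed to 2755 and 2604 CPM in KO and 2699 and 2829 CPM in WT.

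Promoters are shown for the 4 tested genes with the smallest p for KO over WT whose window lies outside the annotated gene. They form 2 ligand and receptor pairs: Sema7a with its receptor Plxnc1, and Sema3e with Plxnd1, which binds Sema3e without a neuropilin. Each promoter is the 250 bases before the RefSeq start on GRCm38.p6, read 5′ to 3′ on the gene's strand. The windows are chr9:57939862-57940111 (plus strand) for Sema7a, chr10:94944846-94945095 (minus strand) for Plxnc1, chr5:14025026-14025275 (plus strand) for Sema3e and chr6:115995006-115995255 (minus strand) for Plxnd1. Capitals mark the GC box, GGGCGG or its reverse complement CCGCCC, the letters read by Sp1-type factors.
Sema7a: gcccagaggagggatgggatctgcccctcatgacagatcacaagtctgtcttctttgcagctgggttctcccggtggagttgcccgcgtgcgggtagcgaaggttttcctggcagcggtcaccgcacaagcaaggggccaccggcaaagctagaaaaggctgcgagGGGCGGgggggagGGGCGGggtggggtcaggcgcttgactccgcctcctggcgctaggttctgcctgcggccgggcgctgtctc
Plxnc1: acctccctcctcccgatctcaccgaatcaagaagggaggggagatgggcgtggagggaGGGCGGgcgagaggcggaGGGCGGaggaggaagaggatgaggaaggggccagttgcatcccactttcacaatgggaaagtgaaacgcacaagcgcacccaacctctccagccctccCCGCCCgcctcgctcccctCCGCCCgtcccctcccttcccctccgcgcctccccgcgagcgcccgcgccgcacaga
Sema3e: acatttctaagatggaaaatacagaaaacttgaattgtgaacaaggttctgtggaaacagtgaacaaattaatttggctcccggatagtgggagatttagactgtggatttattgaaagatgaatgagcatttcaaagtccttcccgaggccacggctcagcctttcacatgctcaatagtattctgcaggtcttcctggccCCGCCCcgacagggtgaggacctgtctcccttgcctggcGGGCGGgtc
Plxnd1: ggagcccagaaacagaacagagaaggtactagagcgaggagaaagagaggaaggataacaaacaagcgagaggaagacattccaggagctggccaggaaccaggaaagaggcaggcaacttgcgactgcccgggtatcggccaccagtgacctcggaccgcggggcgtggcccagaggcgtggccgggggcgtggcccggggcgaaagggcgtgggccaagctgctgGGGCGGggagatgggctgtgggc
The Plxnc1 window held 4 GC boxes and 22 CpG, against 2 and 17 for Sema7a, 2 and 7 for Sema3e and 1 and 16 for Plxnd1. Base composition separated the Sema3e window from the rest, with 48.0% G and C beside 66.4% for Sema7a, 68.8% for Plxnc1 and 64.8% for Plxnd1. RefSeq windows were found for 26 of the 33 genes, 37 windows in all counting additional starts, and 27 of the 37 held a GC box. Over all 32851 windows of the same length, 32.7% held one. The TATA box TATAAA was in 0 of the 37 windows and in 12.4% of all windows, read on both strands. The 37 windows had a median of 13.0 CpG, against 6 over all windows, and a letter match is not evidence that a factor binds there. The set of all windows was not limited to genes tested here, so these differences need not be particular to the family.

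Levels between genes are given per length, as CPM per kb of annotated exon (union of exons, GENCODE M21). The family spanned a wide range, from Sema6c at a mean of 43.0 over the 4 libraries to Sema3e at 0.23, the lowest that was tested, a 187-fold span. Sema6c, a transmembrane class 6 ligand, was the most abundant member, with 42.7 and 40.6 CPM per kb in the KO libraries and 41.4 and 47.1 CPM per kb in the WT libraries. It stood at the 91.4th percentile of the 15708 genes tested and made up 19.4% of the summed semaphorin level. Sema4c, a class 4 ligand of Plxnb2, followed with a mean of 30.1 CPM per kb and 13.6% of the sum, and Sema7a had 27.2 CPM per kb and 12.3%. The secreted class 3 ligands were scarcer. Sema3f, which acts through Nrp2, averaged 14.2 CPM per kb, Sema3c 3.47, Sema3a 1.94, Sema3g 1.31, Sema3b 0.472 and Sema3e 0.23. Of the class 3 genes, 4 (Sema3a, Sema3c, Sema3d and Sema3e) lie on chromosome 5, and their levels differ widely.

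Of the receptors, Plxnb2, the plexin that Sema4c and Sema4g bind, was the most abundant. It had 35.7 and 35.2 CPM per kb in the KO libraries and 37.1 and 36.7 CPM per kb in the WT libraries, and held 23% of the summed plexin level. Plxna3 came next at a mean of 28.5 CPM per kb, then Plxnb1, the receptor of Sema4d, at 22, Plxna2 at 20.3, Plxnd1 at 17.4, Plxna1 at 17.2, Plxna4 at 10.8 and Plxnc1 at 5.35. Nrp2 averaged 8.44 CPM per kb and Nrp1 2.37 CPM per kb, so that Nrp2 supplied 78.2% of the neuropilin level. In the order of all 33 genes, the ranges over the 4 libraries overlapped for 21 of the 32 neighbouring ranks, so those neighbours do not differ beyond their spread. Gaps stood below Sema6c, Plxnb2 and Sema7a at the top, below Sema5b and Sema3f in the middle, and between most ranks from Sema3c down.

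**Figure D1:**
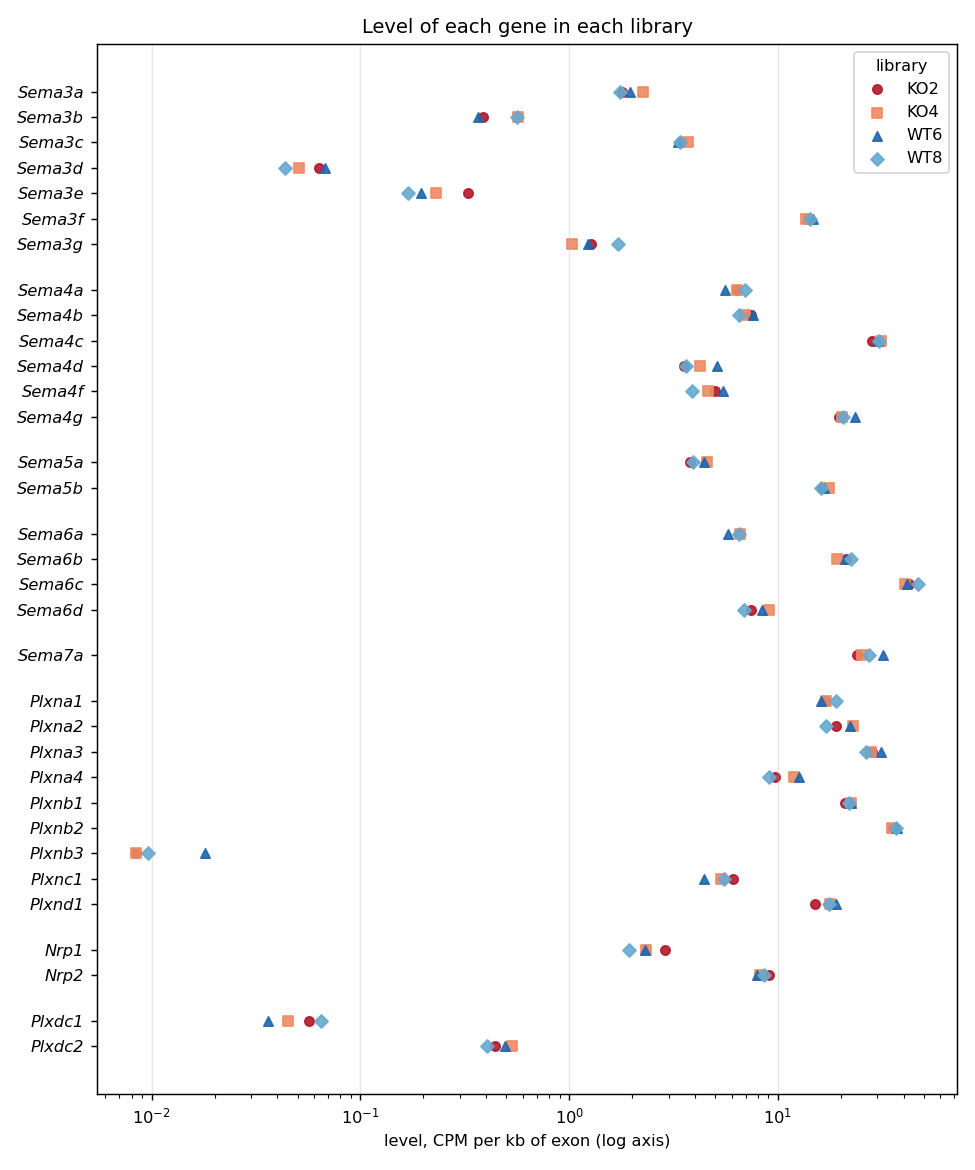
Level of each of the 33 genes in CPM per kb of exon (log axis), one row a gene grouped by class, with a point for each of the libraries KO2, KO4, WT6 and WT8. Sema6c and Plxnb2 lie furthest right, Plxnb3, Plxdc1 and Sema3d furthest left, and the points of 1 gene lie close together compared with the distance between genes.

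Sema3d, Plxnb3 and Plxdc1 were too scarce to test. Plxnb3, on the X chromosome, had 1 and 1 reads in the KO libraries and 2 and 1 reads in the WT libraries. Plxdc1, named for a plexin-like domain although it is not a semaphorin receptor, had 5 and 4 reads in KO and 3 and 5 reads in WT, and Sema3d 10 and 8 reads in KO and 10 and 6 reads in WT. The other 30 genes entered the test across all genes, edgeR's quasi-likelihood test with Benjamini-Hochberg adjustment.

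The comparison of KO with WT brains asked which guidance genes differ when macroH2A is deleted. At an adjusted p of 0.05, edgeR called 0 of the 30 genes, where 0.00637% of all genes tested were called (1 of 15708, H2afy). DESeq2 and limma-voom also called 0 of the 30, where they called 4 and 1 of all genes tested. At an unadjusted p under 0.05 edgeR named 1 of the 30, Sema7a, where 4.7% of all genes passed. Log2 fold changes of KO over WT lay above 0 for 16 genes and below 0 for 14, with a median of 0.01, beside a median of -0.01 over all genes. Their range was -0.35 to 0.62, and their median size was 0.09, against 0.14 over all genes. The 95% interval stayed within a 2-fold difference either way for 29 of the 30 genes and within 1.5-fold for 24. Larger differences are outside the intervals for those genes, and differences within the intervals remain possible with 2 libraries each. Without KO4, 10 of 31 genes lay above 0, and without WT8, 12 of 31, each with a median of -0.05. Without KO2, 17 of 31 lay above 0 (median 0.01), and without WT6, 17 of 30 (median 0.03). Medians over all genes ran from -0.01 to 0.01 in these fits.

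**Figure D2:**
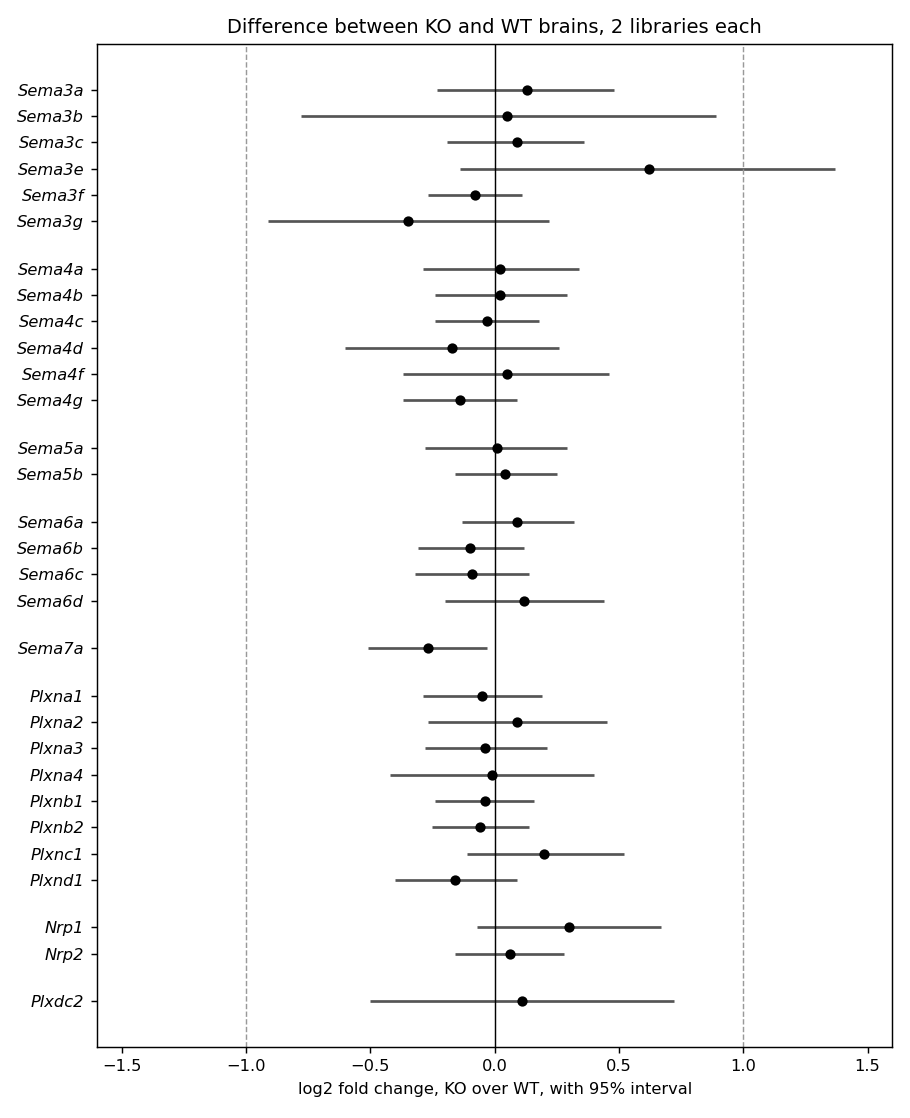
Log2 fold change of KO over WT for the 30 genes tested (2 libraries each), one row a gene grouped by class. Points are edgeR estimates, bars their 95% intervals, and dashed lines mark a 2-fold difference. Of the 30 intervals, the interval of Sema3e alone crosses a dashed line, and that of Sema7a alone lies wholly below 0.

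The KO libraries were higher than either WT library for 4 of the 30 genes (Nrp1, Sema3c, Sema3e and Sema6a), or 13.3%, where 20.1% of all genes tested did. They were lower than either WT library for 4 others (Plxnb2, Sema3f, Sema4g and Sema7a), again 13.3%, where 19.4% of all genes did. For the remaining 22 genes the genotypes overlapped.

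Sema7a, the lipid-anchored ligand that promotes axon growth through integrins and also binds Plxnc1, had 78.8 and 83.7 CPM in the KO libraries and 106 and 90.5 CPM in the WT libraries. The gene lies at chr9:57940112-57962865 on GRCm38. The KO libraries were the lowest of the 4, and WT6 was the highest. Its log2 fold change was -0.27 (SE 0.10, 95% interval -0.51 to -0.03), with an edgeR p of 0.0319 that became 0.743 after adjustment over all genes. Its receptor Plxnc1, the C-type plexin, had 50.9 and 44.7 CPM in KO and 36.9 and 46.2 CPM in WT, where KO4 lay between the WT libraries. The log2 fold change of Plxnc1 was 0.20 (SE 0.13, edgeR adjusted p = 0.743). Ligand and receptor thus had estimates on opposite sides of 0, and neither passed the test. In bulk tissue, fewer cells that express a gene and less RNA per cell cannot be told apart.

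Sema3e, a secreted ligand that repels vessels and axons bearing Plxnd1, had the largest fold of the family and among the fewest reads. It had 56 and 39 reads in the KO libraries and 31 and 25 reads in the WT libraries, with KO above WT throughout. The log2 fold change was 0.62 (SE 0.32, 95% interval -0.14 to 1.37, edgeR adjusted p = 0.743), so the interval spans 0 and a doubling. Plxnd1, its receptor on endothelium and on some neurons, had 111 and 129 CPM in KO and 139 and 128 CPM in WT. KO2 was the lowest and KO4 fell between the WT libraries, and the log2 fold change was -0.16 (SE 0.10, edgeR adjusted p = 0.743).

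Nrp1, which binds Sema3a and is also a co-receptor for VEGF-A, had 28.3 and 22.9 CPM in the KO libraries and 22.5 and 19.0 CPM in the WT libraries. KO lay above WT by a narrow margin, since KO4 and WT6 nearly coincide. The log2 fold change was 0.30 (SE 0.16, 95% interval -0.07 to 0.67, edgeR adjusted p = 0.743). Nrp2, the receptor of Sema3f and Sema3g, had 107 and 96.8 CPM in KO and 94.3 and 101 CPM in WT, with overlap between genotypes. Its log2 fold change was 0.06 (SE 0.092, edgeR adjusted p = 0.859).

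Sema3g, a secreted ligand that endothelium makes, had 5.78 and 4.69 CPM in the KO libraries and 5.58 and 7.77 CPM in the WT libraries. KO2 lay between the WT libraries, so the genotypes overlapped, and the log2 fold change was -0.35 (SE 0.24, edgeR adjusted p = 0.743). The endothelial marker list, 16 of 16 measured, was led by Slc2a1, Cldn5 and Mfsd2a, with none at or under 3 reads. It summed to 336 and 315 CPM in the KO libraries and 333 and 386 CPM in the WT libraries, highest in WT8 as Sema3g was. The markers were not uniform. WT8 was the highest library for 10 of the 16, against 32.8% of all genes, whereas Mfsd2a was highest in KO2 and Kdr lowest in WT8. The part of vessel content in the Sema3g and Plxnd1 values was not tested. The remaining secreted ligands were Sema3f with 72.6 and 70.6 CPM in KO and 77.0 and 74.4 CPM in WT, log2 fold change -0.08 (SE 0.081, edgeR adjusted p = 0.789), and Sema3a, Sema3b and Sema3c with estimates of 0.13, 0.05 and 0.09. Sema3a, the classic collapsing factor for growth cones, had 24.8 and 31.5 CPM in KO and 27.2 and 24.3 CPM in WT. Sema3c, which binds either neuropilin, had 24.6 and 26.5 CPM in KO and 23.8 and 24.2 CPM in WT, and its log2 fold change was below its SE of 0.12. Sema3b was near the lower limit, with 34 and 50 reads in KO and 30 and 43 reads in WT.

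Class 4 ligands gave 3 estimates above 0 and 3 below. Sema4g, a ligand of Plxnb2, had 171 and 176 CPM in the KO libraries and 203 and 178 CPM in the WT libraries, and KO4 and WT8 nearly coincide. Its log2 fold change was -0.14 (SE 0.097, edgeR adjusted p = 0.743). Sema4d, the ligand of Plxnb1, had 27.3 and 32.5 CPM in KO and 39.3 and 27.9 CPM in WT. WT6 alone stood high, the genotypes overlapped, and the log2 fold change was -0.17 (SE 0.18, edgeR adjusted p = 0.8). Sema4a, Sema4b, Sema4c and Sema4f had estimates of 0.02, 0.02, -0.03 and 0.05, that of Sema4c being 0.0 with library totals as the scale. Sema4c had 130 and 143 CPM in KO and 139 and 141 CPM in WT, with the KO libraries outermost. Sema4a had 34.4 and 34.5 CPM in KO and 30.1 and 37.7 CPM in WT, Sema4b 41.9 and 39.2 CPM in KO and 43.0 and 36.8 CPM in WT, and Sema4f 26.4 and 24.6 CPM in KO and 28.9 and 20.5 CPM in WT. In these 3 the WT libraries lay outermost. Plxnb2 had 276 and 272 CPM in KO and 286 and 283 CPM in WT, with KO just below WT. Its log2 fold change was -0.06 (SE 0.082, 95% interval -0.25 to 0.14, edgeR adjusted p = 0.857), and that of Plxnb1 was -0.04, on 202 and 214 CPM in KO and 215 and 211 CPM in WT.

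Class 6 ligands, which face A-type plexins on other cells, had 2 estimates above 0 and 2 below. Sema6c had 254 and 241 CPM in the KO libraries and 246 and 280 CPM in the WT libraries, with WT8 the highest and overlap between genotypes. Its log2 fold change was -0.09 (SE 0.098, edgeR adjusted p = 0.807). Sema6b, a ligand of Plxna4, had 84.2 and 76.0 CPM in KO and 83.2 and 88.3 CPM in WT, also overlapping, and its log2 fold change was -0.10 (SE 0.091, edgeR adjusted p = 0.777). Sema6a, a ligand of Plxna2 and Plxna4, had 57.7 and 57.6 CPM in KO and 50.9 and 57.2 CPM in WT. WT6 alone stood low and KO4 and WT8 nearly coincide, and the log2 fold change was 0.09 (SE 0.093, edgeR adjusted p = 0.789). Sema6d, a ligand of Plxna1, had 78.6 and 96.2 CPM in KO and 88.5 and 72.6 CPM in WT and an estimate of 0.12. The class 5 ligands Sema5a and Sema5b, which carry thrombospondin repeats, had estimates of 0.01 and 0.04. Sema5a had 70.7 and 85.7 CPM in KO and 82.6 and 73.3 CPM in WT, and Sema5b 115 and 124 CPM in KO and 118 and 114 CPM in WT, with KO4 the highest in each. Plxdc2, the plexin domain containing gene that was tested, had 0.11 on 45 to 68 reads a library.

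The A-type plexins, the signalling partners of the neuropilins and class 6 ligands, had estimates of -0.05 for Plxna1, 0.09 for Plxna2, -0.04 for Plxna3 and -0.01 for Plxna4 (0.03 with library totals as the scale), and the genotypes overlapped in all 4. Plxna2 had 325 and 393 CPM in the KO libraries and 382 and 293 CPM in the WT libraries. Plxna4 had 136 and 167 CPM in KO and 178 and 127 CPM in WT. In each, the male and the female pair thus pointed opposite ways. Plxna1 had 152 and 154 CPM in KO and 146 and 171 CPM in WT, and the X-linked Plxna3 had 223 and 221 CPM in KO and 246 and 209 CPM in WT. For these genes the WT libraries lay outermost. Summed by role, the semaphorins had 214 and 218 CPM per kb in KO and 229 and 224 CPM per kb in WT, and the plexins 152 and 160 CPM per kb in KO and 165 and 153 CPM per kb in WT.

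Within a pair there is 1 library of each genotype, so ratios there are given without a test and compare libraries, not genotypes. The median log2 ratio was -0.07 for KO2 over WT6, with 12 of the 30 genes above 0, and 0.02 for KO4 over WT8, with 19 above 0. The ratios had opposite signs in the 2 pairs for 21 of the 30 genes, or 70%, against 50.1% of all genes tested. In 14 of these 21 the male pair was below 0 and the female pair above, a pattern of 46.7% of the family and 25.3% of all genes. Ratios were opposite with both 95% counting intervals clear of 0 for 6 genes, 20% of the family, against 9.61% of all genes. These were Plxna2 (-0.23 in the male pair and 0.43 in the female pair), Plxna3 (-0.14 and 0.08), Plxna4 (-0.39 and 0.40), Sema4d (-0.52 and 0.22), Sema5a (-0.22 and 0.23) and Sema6d (-0.17 and 0.41). Whether a counting interval clears 0 depends on the reads of a gene, and the share over all genes was not matched for reads.

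**Figure D3:**
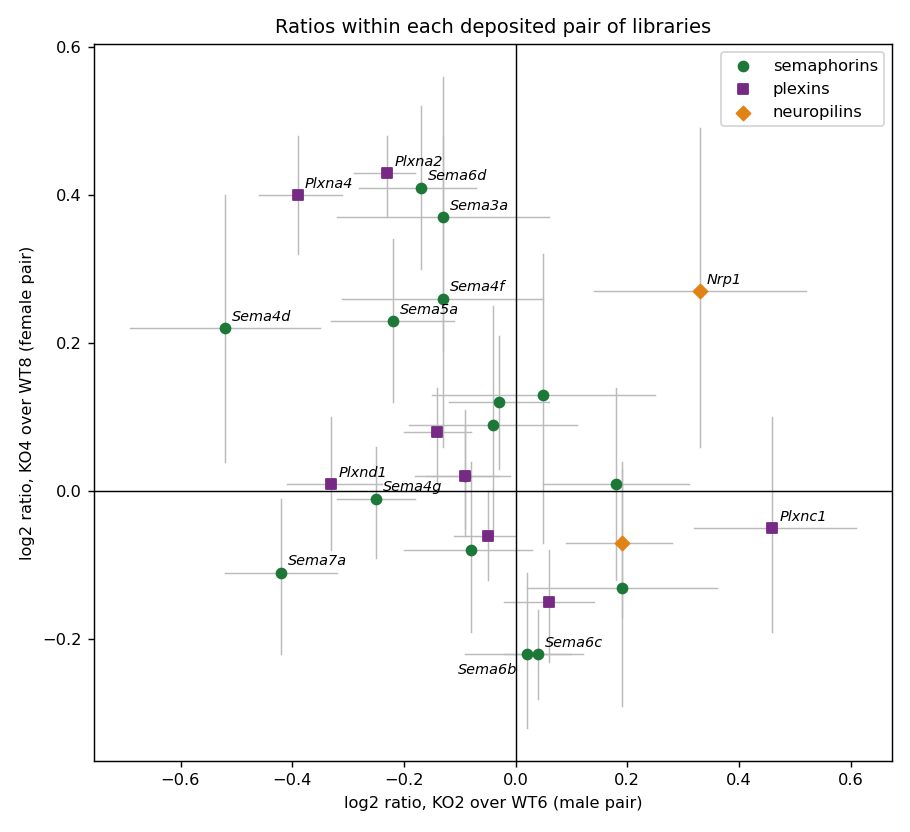
Log2 ratio of KO2 over WT6 (horizontal axis) against log2 ratio of KO4 over WT8 (vertical axis) for the 26 genes with at least 100 reads in every library. Lines are 95% counting intervals, which cover counting error only, and names are given where a ratio exceeds 0.2 either way. Plxna2, Plxna4, Sema4d, Sema5a and Sema6d sit at upper left, Nrp1 at upper right and Sema7a at lower left.

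The authors' own tests took each pair separately. In the authors' deposited table for KO2 over WT6, 4 of the 33 genes were higher at an adjusted p under 0.05, where 8.58% of all listed genes were, and 9 were lower, where 8.67% were. In the authors' deposited table for KO4 over WT8, 12 were higher, where 23.8% of listed genes were, and 4 were lower, where 15.2% were. The authors' mark of significance in the deposited table, which also needs a 2-fold difference, was carried by 0 of the 33 in either pair, against 1.86% of genes in the male pair and 5.05% in the female pair. The 6 genes named above were called in opposite directions by both parts of the authors' deposited table, where 6.53% of the 19150 genes were. That share was not matched for reads either. Nrp1 was the sole gene called in the same direction in both, where 4.75% of genes were. In the authors' deposited table Nrp1 was 1.27-fold higher in KO2 than in WT6 (adjusted p 0.00364) and 1.26-fold higher in KO4 than in WT8 (adjusted p 0.0042). Plxna4 had an authors' deposited table fold of 0.771 (adjusted p 3.92e-20) in the male pair and 1.38 (adjusted p 5.87e-28) in the female pair. Such p-values come from 1 library of each genotype and do not see the spread between embryos.

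Markers of brain regions differed between libraries beside these genes. The dorsal telencephalon list, 11 of 11 measured and with Neurod6 and Neurod2 among its most abundant, summed to 3225 and 3365 CPM in the KO libraries and 4115 and 3109 CPM in the WT libraries. The ventral forebrain list, 12 of 12 measured and with Dlx1 and Dlx2 among its most abundant, summed to 1368 and 1271 CPM in KO and 808 and 1446 CPM in WT. WT6 was thus highest for dorsal and lowest for ventral markers, and WT8 was lowest for dorsal and highest for ventral markers. No marker of either list was at or under 3 reads. WT6 was also the highest library for 11 of the 30 genes tested, or 36.7%, Sema7a, Sema4d, Plxna4 and Plxnd1 among them, against 23% of all genes. In KO over WT, 12 of 12 ventral estimates lay above 0 (median 0.29), where 48.9% of all genes did. Of the 11 dorsal estimates 9 lay below 0 (median -0.14), and edgeR called 0 in both lists. The part of regional content in the values of either pair, or of KO over WT, was not tested.

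**Figure D4:**
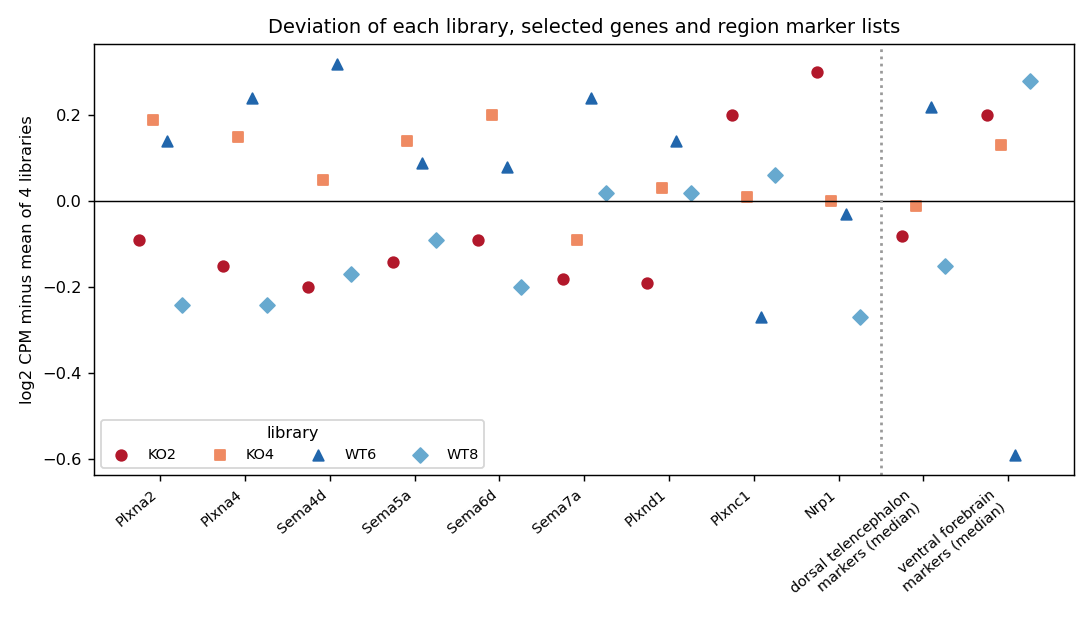
Log2 CPM of each library minus the mean of the 4 libraries, for 9 genes and, right of the dotted line, the median over the dorsal telencephalon and ventral forebrain marker lists. The 9 genes were picked for display and do not stand for the family. Among the 30 genes tested WT6 was lowest for 7 (23.3%, against 20.7% of all genes), and of these Plxna1 and Sema4a were highest in WT8. Points are the libraries KO2, KO4, WT6 and WT8. WT6 lies high for dorsal markers (0.22) and low for ventral markers (-0.59), and WT8 is lowest for dorsal (-0.15) and highest for ventral markers (0.28). WT8 is also the lowest library for Plxna2 and Plxna4, with KO4 the highest for Plxna2 and WT6 for Plxna4.

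Marker lists of other cell types held 0 genes called by edgeR. Of all 15708 genes tested 1 was called, so 0 calls say little about these cell types. Pericyte markers (9 of 9 measured, led by Notch3, Rgs5 and Pdgfrb) summed to 158 and 147 CPM in KO and 154 and 175 CPM in WT, meningeal and mesenchymal markers (11 of 12, led by Fbln1, Prrx1 and Pdgfra) to 84.7 and 80.1 CPM in KO and 81.1 and 96.3 CPM in WT, and microglial markers (13 of 13, led by Cd68, Laptm5 and Csf1r) to 62.2 and 59.2 CPM in KO and 62.3 and 73.7 CPM in WT. Erythroid markers, 11 of 11 and led by Hba-a1, Hbb-bs and Hbb-y, summed to 1006 and 910 CPM in KO and 788 and 1483 CPM in WT. WT8 was the highest library for each of these lists. Choroid plexus markers, 7 of 8 and led by Otx2, Ttr and Aqp1, were at 12.5 and 5.68 CPM in KO and 7.5 and 13.7 CPM in WT.

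Partner genes of the pathway were read from lists in the same edgeR fit, which called 1 of all 15708 genes. Of 19 co-receptors and other receptors edgeR called 0, with 8 estimates above 0, 11 below and a median of -0.05. At an unadjusted p under 0.05 in edgeR there were 2, or 10.5% (4.7% of all genes). Both this count and the count over all genes changed with the library left out. Those with the smallest p were the Wnt co-receptor Ptk7 (log2 fold change -0.25), the VEGF receptor Flt1 (-0.39) and Erbb2, a receptor kinase that couples to B-type plexins (-0.30). The most abundant per length were Cntn2, a neuronal adhesion molecule, Gpc1, a heparan sulfate proteoglycan, and L1cam, a partner of Nrp1, with -0.24, -0.05 and 0.05. Cntn2 had 601 and 613 CPM in the KO libraries and 892 and 538 CPM in the WT libraries, high in WT6 alone.

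Of 45 genes for plexin signalling and semaphorin effectors, edgeR called 0, with 18 estimates above 0, 27 below and a median of -0.03. At an unadjusted p under 0.05 in edgeR there were 4, or 8.89% (4.7% of all genes). Here too the count changed with the library left out, as did the count over all genes. Rnd2, a small GTPase of migrating cortical neurons that acts beside plexins, had 308 and 327 CPM in KO and 417 and 400 CPM in WT, with KO below WT. Its log2 fold change was -0.36 (SE 0.09, edgeR adjusted p = 0.743). Plk2, a kinase, had 0.36, and Rhoa, a GTPase of the actin cytoskeleton, 0.28. The most abundant effectors were cofilin (Cfl1), which severs actin, and the collapsin response mediators Dpysl3 and Crmp1, with -0.13, 0.0 and -0.12.

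The 5 VEGF family genes measured, ligands of the neuropilins, gave 0 calls by edgeR and 0 at an unadjusted p under 0.05, with 1 estimate above 0 and 4 below. Vegfa, which binds Nrp1, had 0.05, Vegfb -0.15, Vegfc -0.10 and Vegfd -0.89 on 9 to 27 reads a library. Of 31 other axon guidance genes, edgeR called 0, with 14 estimates above 0 and 17 below. At an unadjusted p under 0.05 in edgeR there were 6, or 19.4% (4.7% of all genes). Again the count changed with the library left out, as did the count over all genes. Those with the smallest p were the netrin Ntn4 (0.47), the ephrin Efna3 (-0.40) and the Eph receptor Epha4 (0.25), and the most abundant per length were Efnb1 (-0.24), Efnb3 (-0.13) and Draxin (-0.17). DESeq2 and limma-voom also called 0 in each of these lists.

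Exons of Sema4c, Plxna1 and Plxnb1 overlap an antisense gene, by 334, 191 and 257 bases for the exons that overlap most. The sources used here do not say whether counting used strand, so reads of these genes and their antisense partners cannot be told apart wherever their exons overlap.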

How the data were processed

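Total RNA of E13.5 brains was extracted with Trizol and sequenced, per the labels. The authors deposited 2 tables, each with whole-number read counts of 1 KO and 1 WT library, their CPM and the authors' own comparison of the pair: a ratio (linear fold), log2 fold, p-value and adjusted p, per the file headers. Bowtie2 2.2.3, TopHat2 2.0.12, HTSeq 0.6.0 and the build mm9 are named, without their roles, per the submitters' processing notes, whereas 91.2% of positions equal GENCODE M21 on GRCm38, used here. Total counts were 16470090 to 18136745.

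For the 19150 genes present in both, counts were fitted in R 4.3.3 with edgeR 4.0.16 (quasi-likelihood F-test, TMM, filterByExpr keeping 15708 genes, genotype as the term, Benjamini-Hochberg adjustment over all of them, threshold 0.05) and tested on simulated data. CPM are scaled by TMM factors. Ratios within a pair use a prior count of 2. Alternatives were other normalizations and filters, DESeq2 1.42.0, voom in limma 3.58.1, the deposited pair or sex as a term, and each library left out. The genes and lists were chosen with earlier results of these data known. Full statistics went to the 12 smallest p, the most abundant ligand, plexin and neuropilin, and any gene with the authors' mark; of each pathway list the 3 smallest p and 3 most abundant are named, and some marker genes are not reported here.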

Additional observations from a re-analysis of the deposited data

Results flagged for a closer look

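For 6 genes the KO over WT log2 ratio was negative in the male pair (KO2 over WT6) and positive in the female pair (KO4 over WT8), each beyond counting error. The female ratio minus the male ratio was 0.78 for Plxna4, 0.74 for Sema4d, 0.66 for Plxna2, 0.58 for Sema6d, 0.45 for Sema5a and 0.22 for Plxna3. These differences were not tested, since each pair holds 1 library of each genotype, and sex and deposited pair cannot be told apart. Ratios opposite beyond counting error were also found for 1510 of all 15708 genes tested, a set not matched for reads to this family.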

How the results depend on the processing

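No member was called by edgeR or under any of the 13 alternatives, and the smallest adjusted p of a member was 0.0584, for Sema7a (log2 fold change -0.37) without WT8. Over all alternatives Sema7a lay between -0.37 and -0.16. The count over all genes, 1 in the fit reported, was 2 with library totals, 4 with DESeq2 and 2 with the deposited pair or sex as a term. Those last 2 alternatives split the libraries alike and are the same fit. With each library left out in turn it ran from 0 (without WT6) to 104 (without WT8), and 3 pathway lists ran from 0 to 1, each 1 being without WT8 (Cntn2, Rnd2 and Ntn1). Such fits hold 1 library of a genotype, assumed to vary like the other genotype.

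Of 390 fold changes of members under alternatives, 359 kept their sign and 31, over 18 genes, changed it. Of the 31, 20 changed by at most 1 SE and 11 by more. The 390 include the same fit under both the pair term and the sex term. The 11 all came with a library left out, and with each library left out in turn the values ran from -0.16 to 0.07 for Plxna1, -0.08 to 0.29 for Plxna2, -0.14 to 0.08 for Plxna3, -0.22 to 0.25 for Plxna4, -0.05 to 0.30 for Sema3a, -0.13 to 0.20 for Sema4a, -0.39 to 0.10 for Sema4d, -0.18 to 0.32 for Sema4f, -0.14 to 0.14 for Sema5a, -0.18 to 0.01 for Sema6c and -0.04 to 0.27 for Sema6d. The cause was not tested. The other genes that changed sign with a library left out ran from -0.01 to 0.13 for Nrp2, -0.03 to 0.26 for Plxdc2, -0.08 to 0.01 for Plxnb1, -0.25 to 0.40 for Sema3b, -0.08 to 0.14 for Sema4b, -0.10 to 0.04 for Sema4c and -0.01 to 0.10 for Sema5b. Plxna4 was 0.03 with library totals. The labels' numbers are not shared between genotypes and give no pairing. With the deposited pair as a term, 0 members were called and their smallest adjusted p was 0.97. Few reads limit Sema3b, Sema3e and Plxdc2.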
